A study of Mus musculus with 9 samples.

Results

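The genes described here are 10 genes of MHC class I and class II antigen presentation, namely *H2-K1*, *H2-D1*, *B2m*, *Tap1*, *Tap2*, *Psmb8*, *Psmb9*, *H2-Aa*, *H2-Ab1* and *Cd74*. They were taken by name from the 32035 genes to which the deposited transcripts belong. All 10 were found in the files, and all 10 passed the filter on low counts in each comparison.

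MHC class I molecules display peptides from the cell's own cytosolic proteins to CD8 T cells. A heavy chain, encoded by *H2-K1* or *H2-D1*, pairs with beta-2 microglobulin, encoded by *B2m*. The peptides are cut by the proteasome, into which cells exposed to interferon insert the subunits encoded by *Psmb8* and *Psmb9*, and the transporter formed by the *Tap1* and *Tap2* products carries them into the endoplasmic reticulum. MHC class II molecules, formed by the *H2-Aa* and *H2-Ab1* products and guided by the invariant chain CD74, present peptides from outside the cell and are found mainly on macrophages, dendritic cells and B cells. The testis is an immune-privileged organ in which class I is known to be low on germ cells and present on Sertoli, interstitial and immune cells.

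RNAseq was performed on whole testes of male mice aged 15 weeks, with 3 WT, 3 *Kpna6*ΔIBB/ΔIBB and 3 *Kpna6*-/- animals, all on a C57Bl6/N background after 10 generations of backcrossing. *Kpna6* encodes importin α7, an adaptor for nuclear import. In *Kpna6*ΔIBB/ΔIBB mice, loss of exon 2 leaves a shortened mRNA and a truncated protein that cannot bind importin β. In *Kpna6*-/- mice, a gene trap sits in intron 1. The labels describe a full loss of the protein, whereas the study's own text describes germ cells that still make full-length protein from a testis transcript and Sertoli cells that lack it. The labels name no litter or batch and do not say in words that each library came from another animal, so P-values measure the spread between these samples.

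Between 24859751 and 31484692 estimated counts per library fell on genes. *Kpna6* itself had 201, 325 and 334 normalized CPM (estimated counts scaled for library size and composition, as CPM) in WT testes, 81.2, 85.3 and 81.8 in *Kpna6*ΔIBB/ΔIBB testes and 247, 249 and 262 in *Kpna6*-/- testes. It was lower in *Kpna6*ΔIBB/ΔIBB than in WT testes (log2 fold change -1.79 ± 0.15 SE, adjusted P = 1.939e-05). In *Kpna6*-/- testes its summed count did not pass the test (-0.18 ± 0.14 SE, adjusted P = 0.586). Without the first WT testis, the lowest of the 3, it was -0.38 and passed (adjusted P = 0.000345). Because the retained testis transcript is counted with the rest, the gene count does not check the labels of that line. Its transcript *Kpna6*-202 had 20.9 ± 3.47 TPM (a level per transcript length, SD, n = 3) in WT and 11.7 ± 0.359 TPM in *Kpna6*-/- testes. The third *Kpna6*ΔIBB/ΔIBB testis held 67.7 normalized CPM of the epididymal gene *Crisp1*, against 0.07 to 4.06 in the other 8 libraries, and 17.3 of *Adam7*, another epididymal gene. Markers of epididymis and accessory gland summed to 10.05 to 11.37 TPM in WT and 14.75 to 21.33 TPM in *Kpna6*-/- testes. In the 3 *Kpna6*ΔIBB/ΔIBB testes they summed to 30.63, 25.49 and 105.7 TPM, so the other 2 were also above WT. The counts of members called are also given without the third *Kpna6*ΔIBB/ΔIBB library, which held the most.

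Of the 10 genes, 8 lie in the MHC on chromosome 17 (GRCm38, GENCODE M21). *H2-K1* (ENSMUSG00000061232, chr17:33996017-34000347, minus strand) stands at one end of the interval and *H2-D1* (ENSMUSG00000073411, chr17:35262730-35267499, plus strand) at the other. Between them, *Psmb9* (chr17:34181987-34187764, minus strand), *Tap1* (chr17:34187553-34197225, plus strand), *Psmb8* (chr17:34197721-34201454, plus strand) and *Tap2* (chr17:34203527-34216321, plus strand) form a cluster of 34.3 kb. *H2-Ab1* (chr17:34257689-34269419, plus strand) and *H2-Aa* (chr17:34282744-34287823, minus strand) follow. *B2m* lies on chromosome 2 (chr2:122147686-122153083, plus strand). *Psmb9* and *Tap1* point away from each other and their annotated transcripts overlap by 212 bases, so without strand information reads from the overlap cannot be told apart.

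The promoters of 5 members, from RefSeq on build GRCm38.p6, are shown as background, since class I genes are known to share a set of promoter elements. Any part of these elements in the changes described below was not tested. Each runs 5′ to 3′ from 250 bases before the annotated start to the first 50 bases from it. Capitals mark letters of the motifs searched on both strands, which were CCAAT, the core of the interferon-stimulated response element, TTCNNNGAA (core of a gamma-activated site) and the kappa B motif, and, added after the sequences had been seen, a palindromic kappa B-type run, TGACGC and TGACGTCA. The windows are chr17:34000298-34000597 on the minus strand for *H2-K1*, chr17:35262844-35263143 on the plus strand for *H2-D1*, chr2:122147437-122147736 on the plus strand for *B2m*, chr17:34187306-34187605 on the plus strand for *Tap1* and chr17:34287774-34288073 on the minus strand for *H2-Aa*.
H2-K1: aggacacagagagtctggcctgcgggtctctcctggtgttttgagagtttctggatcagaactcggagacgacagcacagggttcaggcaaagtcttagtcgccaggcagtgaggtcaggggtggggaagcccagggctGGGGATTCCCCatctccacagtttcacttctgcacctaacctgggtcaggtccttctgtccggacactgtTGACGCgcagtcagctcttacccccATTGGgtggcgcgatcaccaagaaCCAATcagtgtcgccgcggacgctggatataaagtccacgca
H2-D1: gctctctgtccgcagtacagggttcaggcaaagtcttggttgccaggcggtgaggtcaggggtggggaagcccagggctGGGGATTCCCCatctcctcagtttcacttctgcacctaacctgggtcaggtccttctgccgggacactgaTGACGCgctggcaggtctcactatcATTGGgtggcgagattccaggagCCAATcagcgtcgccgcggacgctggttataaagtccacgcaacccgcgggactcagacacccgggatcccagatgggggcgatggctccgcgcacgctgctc
B2m: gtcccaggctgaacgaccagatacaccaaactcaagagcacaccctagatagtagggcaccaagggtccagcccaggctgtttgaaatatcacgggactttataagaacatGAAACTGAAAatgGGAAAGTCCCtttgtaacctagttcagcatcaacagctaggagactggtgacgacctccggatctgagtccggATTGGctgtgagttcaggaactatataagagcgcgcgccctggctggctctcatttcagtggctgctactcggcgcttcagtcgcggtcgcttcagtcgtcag
Tap1: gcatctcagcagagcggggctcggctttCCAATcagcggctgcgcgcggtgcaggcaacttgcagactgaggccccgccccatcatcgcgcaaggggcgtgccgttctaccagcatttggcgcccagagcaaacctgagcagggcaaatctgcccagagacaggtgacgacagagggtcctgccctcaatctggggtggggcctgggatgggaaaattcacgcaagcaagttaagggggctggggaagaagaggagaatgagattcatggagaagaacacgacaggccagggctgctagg
H2-Aa: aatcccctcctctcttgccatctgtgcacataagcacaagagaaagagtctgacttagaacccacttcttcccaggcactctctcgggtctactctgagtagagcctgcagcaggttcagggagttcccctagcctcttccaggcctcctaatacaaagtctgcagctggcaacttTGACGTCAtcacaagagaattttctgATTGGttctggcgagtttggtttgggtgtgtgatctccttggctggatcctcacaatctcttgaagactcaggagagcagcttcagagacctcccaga

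The *H2-K1* and *H2-D1* windows were alike, with 206 of 227 aligned bases identical (90.7%) and 1 gap. Both held the palindromic kappa B-type run, 111 bases before the start in *H2-K1* and 171 in *H2-D1*, which 10 of the 32851 promoters in the table hold (0.0304%), and TGACGC, which 7.4% of them hold. The *B2m* window held the interferon-stimulated response core 139 bases and the kappa B motif 126 bases before the start, motifs found in 3.44% and 1.63% of all promoters. Only exact matches were searched, so looser forms of these elements in the other windows were not looked for. In the *H2-Aa* window TGACGTCA lay 74 and CCAAT, read on the other strand, 48 bases before the start. TGACGTCA occurs in 1.79% of promoters. CCAAT was in 6 of the 7 member promoters in the table, but 37.4% of all promoters hold it. The *Psmb9* and *Tap1* windows overlap by 275 bases, and the same CCAAT site was counted for both. TTCNNNGAA, present in 8.3% of promoters, was found in the *Psmb8* window only among the 7. The motifs do not overlap each other in the printed windows. The RefSeq start that sets the *H2-D1* window lies 364 bases from the GENCODE start, and those of the other 4 printed windows lie within 3 bases. Those of the *Psmb8* and *Psmb9* windows, not printed, lie 474 and 434 bases away. The distances given depend on the annotated starts. CCAAT, counted on both strands, lay 16 bases before and 8 after the start in *H2-K1*, but 76 and 53 bases before it in *H2-D1*.

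In WT testes, *H2-K1* and *B2m* had the highest levels per length, with 62.9 ± 3.00 and 52.6 ± 3.32 TPM (SD, n = 3), and their ranges did not overlap. *H2-Ab1* followed with 16.8 ± 0.506 TPM, above all WT values of *H2-D1* at 14.2 ± 0.782. *H2-D1* and *Cd74* (13.2 ± 1.77 TPM) overlapped, whereas *H2-Aa* was lower at 7.36 ± 2.46 TPM. The 4 processing genes were near the floor of the measurement, in the order *Psmb8* (1.38 ± 0.196 TPM), *Tap2* (1.18 ± 0.152), *Psmb9* (0.836 ± 0.321) and *Tap1* (0.660 ± 0.0566), and *Psmb8* overlapped *Tap2* and *Psmb9* overlapped *Tap1*, while the lowest *Tap2* and the highest *Psmb9* value met at 1.03 TPM. In raw terms, the WT libraries held 1897 to 2063 estimated counts of *H2-K1* but only 12 to 26 of *Psmb9* and 33 to 41 of *Psmb8*.

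In *Kpna6*ΔIBB/ΔIBB testes, 7 of the 10 genes were higher than in WT and none was lower. Both class I heavy chain genes, *B2m*, both transporter genes, *Psmb9* and *Cd74* rose, by 1.36-fold to 2.57-fold. *Psmb8* and the class II chain genes *H2-Aa* and *H2-Ab1* did not pass the test. Over all 18797 genes tested, 36.6% passed it, 17.7% as higher and 18.9% as lower. The median log2 fold change was 0.45 over the 10 genes and 0.01 over all genes. The 7 genes were also those whose *Kpna6*ΔIBB/ΔIBB values all exceeded the WT values, as did those of 24.8% of all genes, while those of 25.2% were all below. Without the library with the most epididymal RNA, the same 7 genes were called as higher. Scaled by library size only, the median of all genes was 0.11, and 5416 genes were called as higher and 2326 as lower against 3327 and 3547, with 7 of 10 members still higher.

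*H2-K1*, the most abundant of the 10, had 65.1, 67.9 and 69.1 normalized CPM in WT testes, 91.1, 90.1 and 96.0 in *Kpna6*ΔIBB/ΔIBB testes and 76.5, 70.4 and 73.5 in *Kpna6*-/- testes. The *Kpna6*ΔIBB/ΔIBB values lay above all 6 others. The log2 fold change against WT was 0.46 ± 0.05 SE (1.38-fold, adjusted P = 4.945e-05). *H2-D1* had 21.1, 21.03 and 19.5 normalized CPM in WT testes, 41.6, 38.4 and 35.9 in *Kpna6*ΔIBB/ΔIBB testes and 26.5, 28.4 and 29.8 in *Kpna6*-/- testes. Here the 3 groups separated without overlap, WT lowest and *Kpna6*ΔIBB/ΔIBB highest. The rise in *Kpna6*ΔIBB/ΔIBB over WT was 0.91 ± 0.07 SE on the log2 scale (1.88-fold, adjusted P = 1.394e-05). The ratio of *H2-D1* to *H2-K1*, a quantity chosen after the values were seen and not tested, was 0.305 ± 0.0219 (SD, n = 3) in normalized CPM in WT testes, 0.419 ± 0.0420 in *Kpna6*ΔIBB/ΔIBB testes and 0.385 ± 0.0328 in *Kpna6*-/- testes.

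Reads of the 2 heavy chain genes are partly interchangeable. Of the words of 31 bases in the most abundant *H2-K1* transcript, 23.3% also occur in transcripts of other genes, and for *H2-D1* this share was 27.7%. When the counts of all class I heavy chain genes were summed before the test, the sum was 0.43 higher on the log2 scale in *Kpna6*ΔIBB/ΔIBB than in WT testes (adjusted P = 2.789e-05).

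*B2m*, which encodes the light chain common to all class I molecules, had 26.6, 24.01 and 26.2 normalized CPM in WT testes, 33.3, 31.7 and 39.2 in *Kpna6*ΔIBB/ΔIBB testes and 25.4, 30.7 and 33.8 in *Kpna6*-/- testes. All *Kpna6*ΔIBB/ΔIBB values were above all WT values, while the *Kpna6*-/- testes spread over both ranges. The log2 fold change in *Kpna6*ΔIBB/ΔIBB was 0.44 ± 0.08 SE (1.36-fold, adjusted P = 0.00188).

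**Figure D1:**
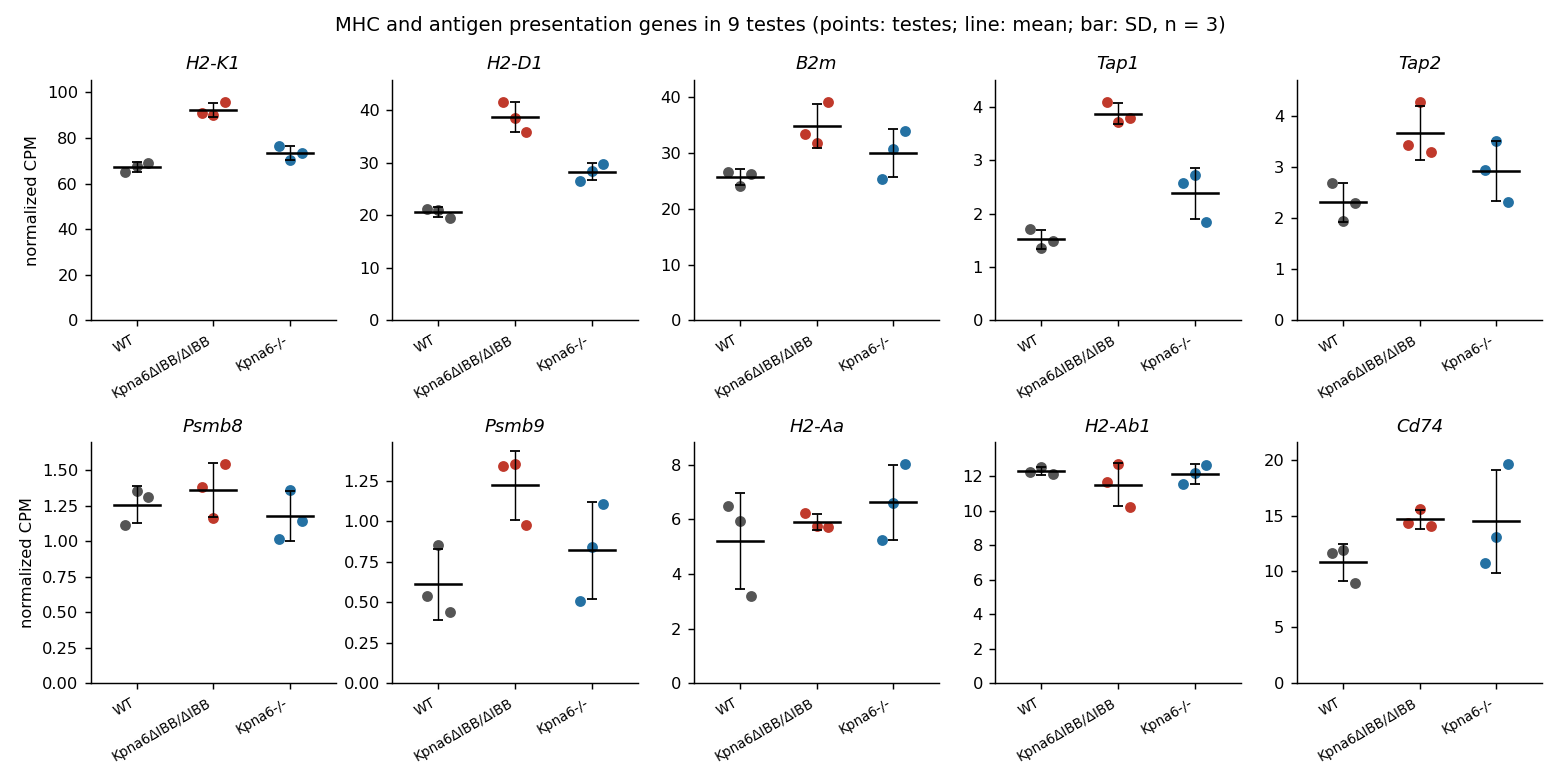
Normalized CPM of each of the 10 genes in every testis, with 1 panel per gene, points for testes, a horizontal line for the mean and a bar for the SD (n = 3). The y axes start at 0 and differ between panels. The *Kpna6*ΔIBB/ΔIBB points lie above all WT points in 7 panels and overlap them in those of *Psmb8*, *H2-Aa* and *H2-Ab1*.

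The largest change among the 10 genes was that of *Tap1*, the first subunit of the peptide transporter. It had 1.70, 1.36 and 1.49 normalized CPM in WT testes, 4.10, 3.72 and 3.80 in *Kpna6*ΔIBB/ΔIBB testes and 2.57, 2.73 and 1.84 in *Kpna6*-/- testes. Again the 3 groups did not overlap. The log2 fold change in *Kpna6*ΔIBB/ΔIBB against WT was 1.36 ± 0.16 SE (2.57-fold, adjusted P = 0.000109). *Tap2*, the partner subunit, had 2.70, 1.94 and 2.30 normalized CPM in WT testes, 3.44, 4.29 and 3.31 in *Kpna6*ΔIBB/ΔIBB testes and 2.94, 3.52 and 2.33 in *Kpna6*-/- testes. It rose by 0.68 ± 0.18 SE in *Kpna6*ΔIBB/ΔIBB (1.60-fold, adjusted P = 0.0122). This call was lost without the second WT testis (adjusted P = 0.0509), without the second *Kpna6*ΔIBB/ΔIBB testis (0.0595) and with limma on log2(TPM + 1) (0.0788), and 21.3% of the 31-base words of its largest transcript are shared with other genes.

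Of the immunoproteasome subunits among the 10 genes, *Psmb9* passed the test and *Psmb8* did not, and the difference between them was not tested. *Psmb9*, which encodes LMP2, had 0.540, 0.856 and 0.437 normalized CPM in WT testes, 1.34, 1.35 and 0.976 in *Kpna6*ΔIBB/ΔIBB testes and 0.507, 0.844 and 1.11 in *Kpna6*-/- testes. It was higher in *Kpna6*ΔIBB/ΔIBB than in WT (log2 fold change 0.99 ± 0.31 SE, 1.98-fold, adjusted P = 0.0266). With so few counts the call was not stable, since it held in 9 of 15 alternative analyses and was lost without WT replicate 1 or 3 (adjusted P = 0.0755 and 0.0924) or *Kpna6*ΔIBB/ΔIBB replicate 1 or 2 (0.0836 and 0.0906). *Psmb8*, which encodes LMP7, had 1.11, 1.35 and 1.31 normalized CPM in WT testes, 1.38, 1.16 and 1.54 in *Kpna6*ΔIBB/ΔIBB testes and 1.01, 1.36 and 1.15 in *Kpna6*-/- testes, and the groups overlapped (0.12 ± 0.22 SE on the log2 scale, adjusted P = 0.711).

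Each immunoproteasome subunit replaces a constitutive one, *Psmb8* that of *Psmb5* and *Psmb9* that of *Psmb6*. The constitutive genes were far more abundant, at 110 ± 6.41 TPM for *Psmb5* and 278 ± 8.46 TPM for *Psmb6* in WT testes (SD, n = 3), and *Psmb5*, *Psmb6* and *Psmb7* did not pass the test in *Kpna6*ΔIBB/ΔIBB (log2 fold changes 0.04, 0.02 and -0.04, the last turning to 0.06 scaled by library size only and 0.09 with limma). The ratio of *Psmb8* to *Psmb5* in TPM was 0.0125 ± 0.00165 in WT testes, 0.0125 ± 0.00122 in *Kpna6*ΔIBB/ΔIBB testes and 0.0119 ± 0.00192 in *Kpna6*-/- testes. The ratio of *Psmb9* to *Psmb6* was 0.00302 ± 0.00121 in WT testes, 0.00690 ± 0.00363 in *Kpna6*ΔIBB/ΔIBB testes and 0.00369 ± 0.000536 in *Kpna6*-/- testes. In TPM, *Kpna6*ΔIBB/ΔIBB and WT values overlapped for both ratios (two-sided exact permutation tests of the log2 ratios, P = 1.0 and P = 0.3, where 0.1 is the smallest value that 3 against 3 can give). In normalized CPM, the *Psmb9* to *Psmb6* ratio was 0.00467, 0.00758 and 0.00371 in WT and 0.0115, 0.0116 and 0.00836 in *Kpna6*ΔIBB/ΔIBB testes, without overlap, a log2 difference of 1.03 (two-sided exact permutation test, P = 0.1), so the 2 scales differ for this ratio. For *Psmb8* to *Psmb5* in normalized CPM the log2 difference was 0.08 (two-sided exact permutation test, P = 0.7). With a smallest P of 0.1 these tests can show no difference and no likeness. *Psmb10*, which encodes the remaining immunoproteasome subunit, was higher by 0.52 ± 0.12 SE on the log2 scale (adjusted P = 0.00762).

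The class II genes did not move as a group. *H2-Ab1* had 12.2, 12.6 and 12.1 normalized CPM in WT testes, 11.7, 12.7 and 10.2 in *Kpna6*ΔIBB/ΔIBB testes and 11.6, 12.2 and 12.7 in *Kpna6*-/- testes, and *H2-Aa* had 6.48, 5.93 and 3.20, then 6.24, 5.75 and 5.73, then 5.25, 6.59 and 8.02. All 3 groups overlapped for both genes, and the log2 fold changes in *Kpna6*ΔIBB/ΔIBB against WT were -0.09 ± 0.10 SE for *H2-Ab1* (adjusted P = 0.507, and 0.01 scaled by library size only) and 0.18 ± 0.21 SE for *H2-Aa* (adjusted P = 0.533). *Cd74*, the invariant chain gene on chromosome 18, had 11.6, 11.9 and 8.93 normalized CPM in WT testes, 14.3, 15.6 and 14.1 in *Kpna6*ΔIBB/ΔIBB testes and 10.8, 13.1 and 19.6 in *Kpna6*-/- testes. It was higher in *Kpna6*ΔIBB/ΔIBB (0.44 ± 0.11 SE, 1.36-fold, adjusted P = 0.0106), although the highest single value belonged to the third *Kpna6*-/- testis. With all 9 testes in 1 fit, where the spread of the *Kpna6*-/- group entered, *Cd74* no longer passed (adjusted P = 0.0637).

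The RNA levels of cell type markers differed between the groups. The 12 Sertoli cell markers summed to 725 to 805 TPM in WT and 1128 to 1376 TPM in *Kpna6*ΔIBB/ΔIBB testes, and all 12 were called as higher, where 17.7% of all genes were called as higher and 18.9% as lower. In contrast, all 10 markers of elongating spermatids were called as lower, from 69970 to 80090 TPM in WT to 58260 to 66520 TPM in *Kpna6*ΔIBB/ΔIBB. The 12 macrophage markers summed to 64.9 to 90.0 TPM in WT and 98.0 to 112 TPM in *Kpna6*ΔIBB/ΔIBB testes. Of them, 4 were called as higher and none as lower (33.3%, against 17.7% of all genes as higher and 36.6% either way). Of the other lists, 4 of 5 peritubular myoid markers and 2 of 6 Leydig cell markers were called as higher, as was 1 of the 4 T and NK cell markers tested, and 0 of 6 endothelial markers were called (12.5 to 14.2 TPM in WT, 14.6 to 15.7 in *Kpna6*ΔIBB/ΔIBB). Dendritic cell markers (15.2 to 18.2 against 14.1 to 17.5 TPM) and B cell markers (39.5 to 44.4 against 35.6 to 40.4 TPM) each had 1 gene called as lower and none as higher, with the B cell receptor genes *Cd79a* and *Cd79b* at or below 0.206 normalized CPM on average in each group. Among erythroid markers 4 of 5 were lower and 1 higher, and 2 of 3 tested markers of epididymis and accessory gland were higher and 1 lower. The study's own text reports fewer Sertoli cells per tubule in adult testes of both lines. For *Kpna6*ΔIBB/ΔIBB mice it also reports a lower testis weight relative to body weight and fewer pachytene spermatocytes, round spermatids and epididymal sperm. Cells per tubule and shares of whole-testis RNA, such as TPM, are unlike measures and can move apart. The study's real-time PCR showed no significant change for most of the androgen-regulated and Sertoli genes it measured. Changes in the number of cells of a type and in RNA per cell cannot be told apart in whole testes, and the part of the cell makeup in the changes of the 10 genes was not tested.

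In *Kpna6*-/- testes, *H2-D1* was the only one of the 10 genes that passed the test against WT, against 1.6% of the 18681 genes tested, 0.889% as higher and 0.712% as lower. Its log2 fold change was 0.46 ± 0.07 SE (1.37-fold, adjusted P = 0.00537). The call was lost with limma on log2(TPM + 1) (adjusted P = 0.127), and the summed class I heavy chain genes had a log2 fold change of 0.17 that did not pass (adjusted P = 0.0515). The median log2 fold change of the 10 genes was 0.34, against 0.00 over all genes, and 8 of 10 were above 0. For *H2-K1*, *H2-D1* and *Tap1*, all *Kpna6*-/- values were above all WT values, as was the case for 10.2% of all genes, with 9.8% all below. *Tap1* reached 0.66 ± 0.21 SE (adjusted P = 0.154), *H2-K1* 0.12 ± 0.05 SE (adjusted P = 0.26), *B2m* 0.22 ± 0.09 SE (adjusted P = 0.278) and *Cd74* 0.41 ± 0.18 SE (adjusted P = 0.314). The Sertoli cell markers summed to 847 to 931 TPM in this line, with 1 of 12 called as higher, and 0 of 12 macrophage markers were called by edgeR (73.9 to 92.2 TPM).

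The direct comparison of the lines asked where *Kpna6*ΔIBB/ΔIBB testes differed from *Kpna6*-/- testes. By the study's account, *Kpna6*ΔIBB/ΔIBB testes make only the truncated protein, with no full-length protein in Sertoli or germ cells. *Kpna6*-/- testes lack the protein in Sertoli cells but keep the full-length form in germ cells. The lines thus share the lack of full-length protein in Sertoli cells and differ in whether germ cells have it. *H2-K1*, *H2-D1* and *Tap1* were higher in *Kpna6*ΔIBB/ΔIBB testes when set against *Kpna6*-/- testes, and none of the 10 was lower. Of 18752 genes tested, 13.5% were called as higher and 16.8% as lower, 30.3% in all. The 3 of 10, all higher, were close to the share called either way and above the share called as higher. Scaled by library size only, 4931 genes were called as higher and 2016 as lower against 2523 and 3150, and 4 of 10 members as higher, *B2m* being added. The log2 differences were 0.33 ± 0.05 SE for *H2-K1* (adjusted P = 0.000268), 0.45 ± 0.06 SE for *H2-D1* (adjusted P = 0.000341) and 0.69 ± 0.17 SE for *Tap1* (adjusted P = 0.00805). For these genes the groups did not overlap, as for 21.7% of all genes upwards and 22.7% downwards. The same 3 genes were called without the library with the most epididymal RNA. *Cd74* gave a difference of 0.02 ± 0.17 SE (adjusted P = 0.95) and *B2m* one of 0.21 ± 0.10 SE (adjusted P = 0.15). Since both lines were compared with the same WT testes, their fold changes against WT are not independent of each other.

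**Figure D2:**
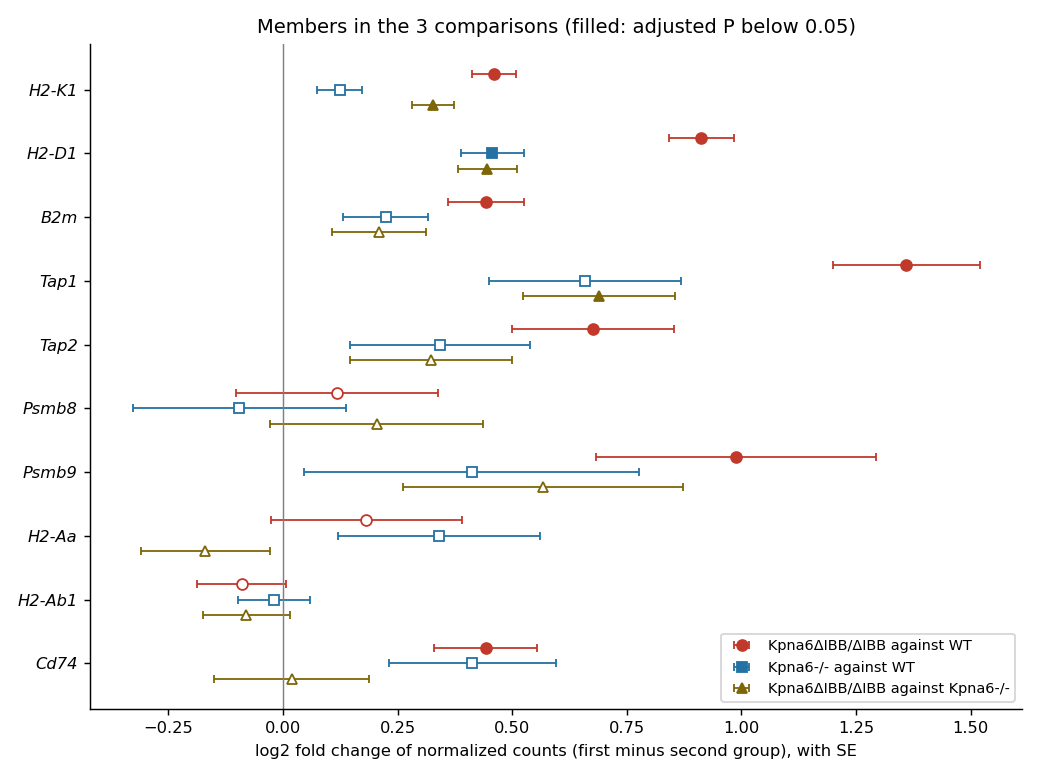
Log2 fold changes of the 10 genes with their SE in the 3 comparisons, red circles for *Kpna6*ΔIBB/ΔIBB against WT, blue squares for *Kpna6*-/- against WT and brown triangles for the lines against each other (n = 3 per group). Filled symbols mark adjusted P values below 0.05, of which there are 7, 1 and 3, and the red circle of *Tap1*, at 1.36, lies farthest to the right.

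The known regulators of these genes showed different patterns. *Nlrc5*, known as the transactivator of class I genes, *B2m*, *Tap1* and *Psmb9*, had 11.0, 8.50 and 8.81 normalized CPM in WT testes, 2.18, 1.92 and 2.20 in *Kpna6*ΔIBB/ΔIBB testes and 8.15, 8.12 and 6.84 in *Kpna6*-/- testes. Its *Kpna6*ΔIBB/ΔIBB values were far below all others. The log2 fold change was -2.16 ± 0.14 SE against WT (adjusted P = 9.962e-06) and -1.88 ± 0.13 SE against *Kpna6*-/- (adjusted P = 2.144e-06), and the call held in 15 of 15 alternative analyses in both comparisons. In *Kpna6*-/- testes all values were also below the lowest WT value, but the log2 fold change of -0.29 ± 0.12 SE did not pass (adjusted P = 0.276). The gene fell in the same testes in which *H2-K1*, *H2-D1*, *B2m*, *Tap1* and *Psmb9* rose. The full-length protein-coding transcript *Nlrc5*-201 held 25.6% to 40.8% of the TPM of the gene in WT and 32.7% to 37.5% in *Kpna6*ΔIBB/ΔIBB testes, and in WT the retained-intron transcript *Nlrc5*-203 took 34.2% to 47.4%.

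*Ciita*, the class II transactivator, was at the floor, with 0.568 ± 0.224 normalized CPM in WT testes, 0.479 ± 0.137 in *Kpna6*ΔIBB/ΔIBB testes and 0.550 ± 0.162 in *Kpna6*-/- testes (SD, n = 3), and a change could not be seen at this depth. *Rfx5*, a subunit of the factor that binds the promoters of both classes, had 32.4 ± 1.41 normalized CPM in WT testes, 30.6 ± 0.812 in *Kpna6*ΔIBB/ΔIBB testes and 33.9 ± 0.798 in *Kpna6*-/- testes. It did not pass against WT in *Kpna6*ΔIBB/ΔIBB testes (-0.08 ± 0.06 SE, adjusted P = 0.328), a value that turned positive scaled by library size only (0.02) and with limma on log2(TPM + 1) (0.13). The difference between the lines (-0.15 ± 0.05 SE, adjusted P = 0.0406) held in 3 of 15 alternatives and turned to 0.04 with limma.

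**Figure D3:**
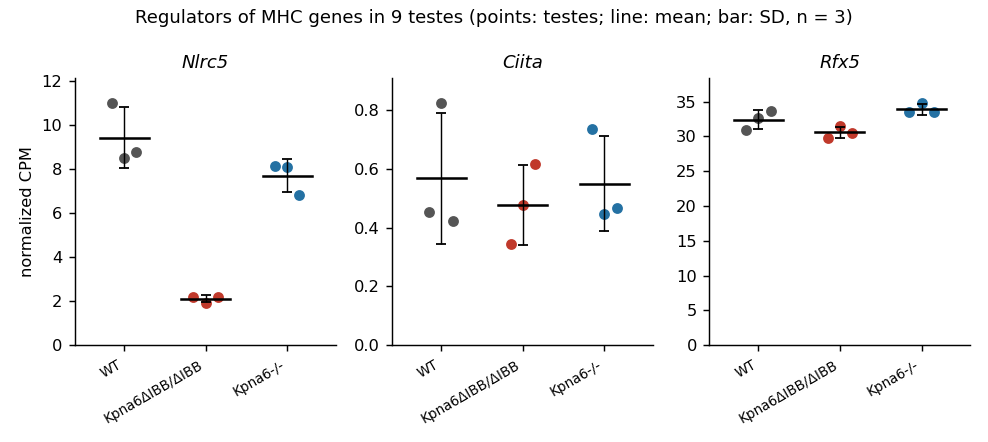
Normalized CPM of *Nlrc5*, *Ciita* and *Rfx5* in every testis, with points for testes, a line for the mean and a bar for the SD (n = 3). The 3 *Kpna6*ΔIBB/ΔIBB testes lie near 2 for *Nlrc5*, below the lowest other value of 6.84, and overlap WT in the other panels.

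The other genes of the pathway were read from a list of 60, of which 48 passed the filter in *Kpna6*ΔIBB/ΔIBB against WT. Of these, 22 were higher and 2 were lower (24 of 48, against 36.6% of all genes), and without the library with the most epididymal RNA 20 were higher and 3 lower. Their median log2 fold change was 0.20. Of the 15 tested class I heavy chains and relatives, 6 rose and 1 fell (46.7%, against 36.6% of all genes). The median log2 fold change of these 15 was 0.03, against 0.01 over all genes, and 9 were above 0. *H2-M3*, *H2-T22* and *H2-T23*, non-classical class I genes, rose by 0.85 ± 0.19 SE, 0.85 ± 0.19 SE and 0.76 ± 0.15 SE (adjusted P = 0.00618, 0.00545 and 0.00229). *H2-Q6*, another non-classical gene, was lower by the test (-0.34 ± 0.10 SE, adjusted P = 0.0243), but this held in 8 of 14 alternatives, and 51.8% of the 31-base words of its largest transcript are shared with other genes. For *H2-T22* this share was 70.8%.

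Of the 9 genes of peptide processing and loading, 6 rose and none fell (66.7%, against 17.7% of all genes as higher). *Psme1*, a subunit of the interferon-inducible proteasome activator PA28, had 10.0, 6.42 and 8.34 normalized CPM in WT and 18.2, 15.6 and 15.0 in *Kpna6*ΔIBB/ΔIBB testes, a rise of 0.98 ± 0.14 SE (adjusted P = 0.00042). *Tapbp*, which encodes tapasin, the protein that holds empty class I molecules at the transporter, rose by 0.22 ± 0.05 SE (adjusted P = 0.00591). Among 11 tested class II and lysosomal processing genes, 4 rose and none fell (36.4%, against 17.7% of all genes as higher and 36.6% either way). These 4 were led by *Lgmn*, a lysosomal endopeptidase (0.75 ± 0.07 SE, adjusted P = 3.94e-05). Of 13 regulators, 6 rose and *Nlrc5* fell (53.8%, against 36.6% of all genes).

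In the comparison of *Kpna6*-/- with WT testes, 1 of 48 genes of this list passed the test (2.08%, against 1.6% of all genes), and 0 did with all 9 testes in 1 fit. Between the lines, 11 of 47 genes rose and 4 fell in *Kpna6*ΔIBB/ΔIBB relative to *Kpna6*-/- testes (31.9%, against 30.3% of all genes). The higher genes were led by *Lgmn* (0.60 ± 0.07 SE, adjusted P = 7.1e-05) and *Psme1* (0.53 ± 0.10 SE, adjusted P = 0.00223), followed by *Ctsl*, another lysosomal protease (0.42 ± 0.07 SE, adjusted P = 0.00095), the kinase gene *Jak2* (0.40 ± 0.08 SE, adjusted P = 0.00369) and *H2-DMa*, which helps to load class II (0.38 ± 0.09 SE, adjusted P = 0.00815). *Psmb10* (0.36 ± 0.12 SE, adjusted P = 0.0328) and *Tapbp* (0.15 ± 0.05 SE, adjusted P = 0.0432) passed as well, but held in 9 of 15 and 10 of 15 alternatives. *Psmb10* was lost without any single testis other than the third *Kpna6*ΔIBB/ΔIBB one, and *Tapbp* without the first or second *Kpna6*ΔIBB/ΔIBB testis or *Kpna6*-/- replicate 2 or 3. The lower genes were *Nlrc5*, *Irf8*, *H2-Q6* and *Rfx5*, and the last 3 passed narrowly, with adjusted P values of 0.04999, 0.033 and 0.0406 and with 3 of 15, 7 of 14 and 3 of 15 alternatives in which they did.

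**Figure D4:**
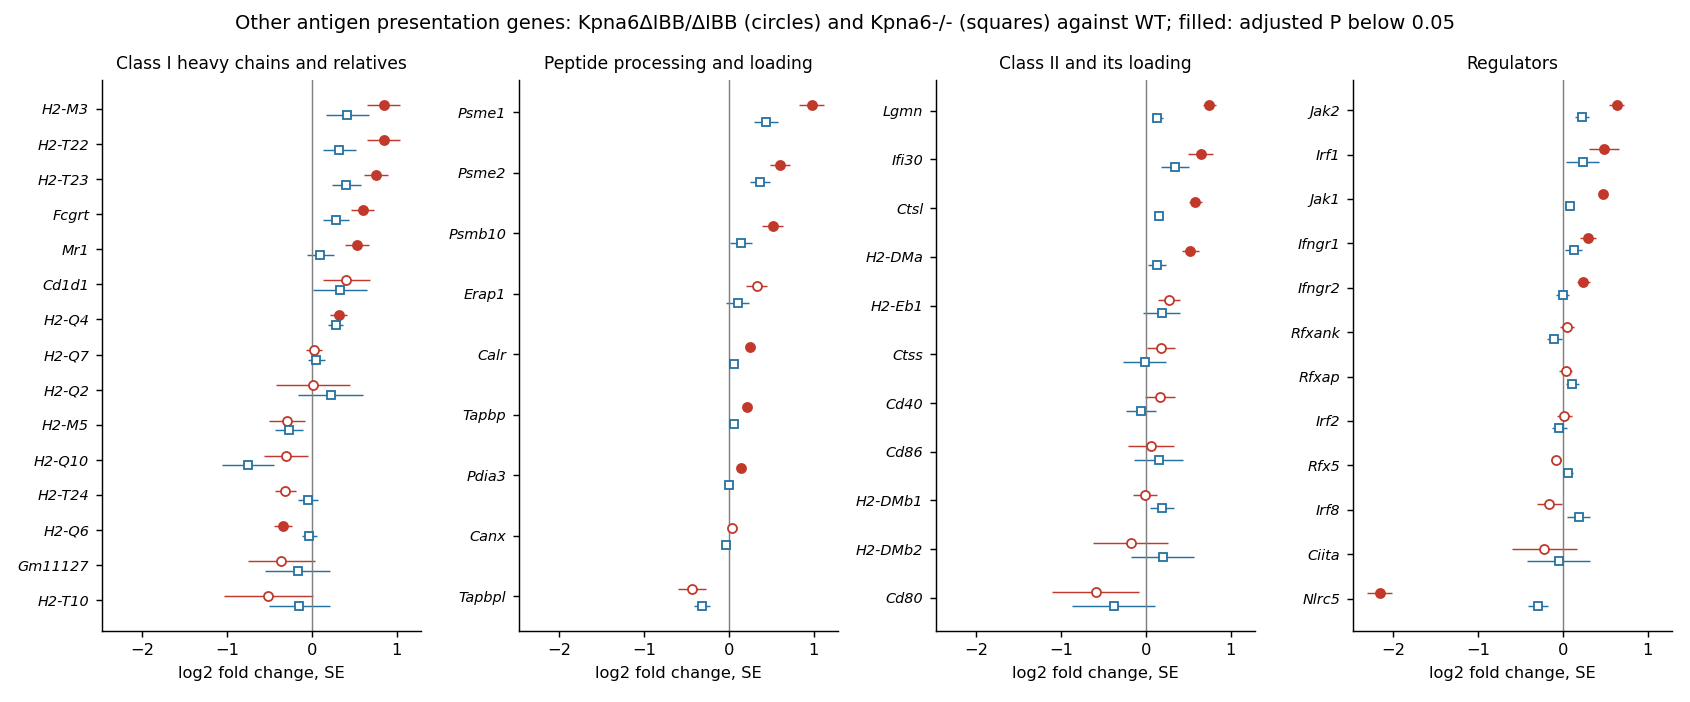
Log2 fold changes with SE of genes of the pathway list that were tested, in 4 panels by role, red circles for *Kpna6*ΔIBB/ΔIBB and blue squares for *Kpna6*-/- against WT (n = 3 per group), filled where the adjusted P was below 0.05. Most filled red circles lie right of 0 and *Nlrc5* lies alone at -2.16.

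Neighbouring genes were read to see what the rest of the MHC interval did. Between the starts of *H2-K1* and *H2-D1*, 1267 kb apart, 68 genes that are neither members nor on the pathway list were tested in *Kpna6*ΔIBB/ΔIBB against WT. Of these, 16 were higher and 5 lower (30.9%, against 36.6% of all genes). The 16 made up 23.5%, where 17.7% of all genes were called as higher and 18.9% as lower. The median log2 fold change was 0.12, against 0.01 over all genes. Of 64 tested in *Kpna6*-/- against WT, 0 were called by edgeR, where 1.6% of all genes were. Between the lines, 11 were higher and 9 lower of 68 (29.4%, against 30.3% of all genes). The 11 made up 16.2%, where 13.5% of all genes were called as higher and 16.8% as lower. Changes beyond 1 on the log2 scale were seen in *Tnxa* and *Ly6g6d* in *Kpna6*ΔIBB/ΔIBB against WT (1.09 ± 0.34 SE and 1.39 ± 0.39 SE) and in *Tnxa* and *Gm16181* between the lines (1.22 ± 0.35 SE and 1.098 ± 0.31 SE), all of them below 1 normalized CPM on average in every group.

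**Figure D5:**
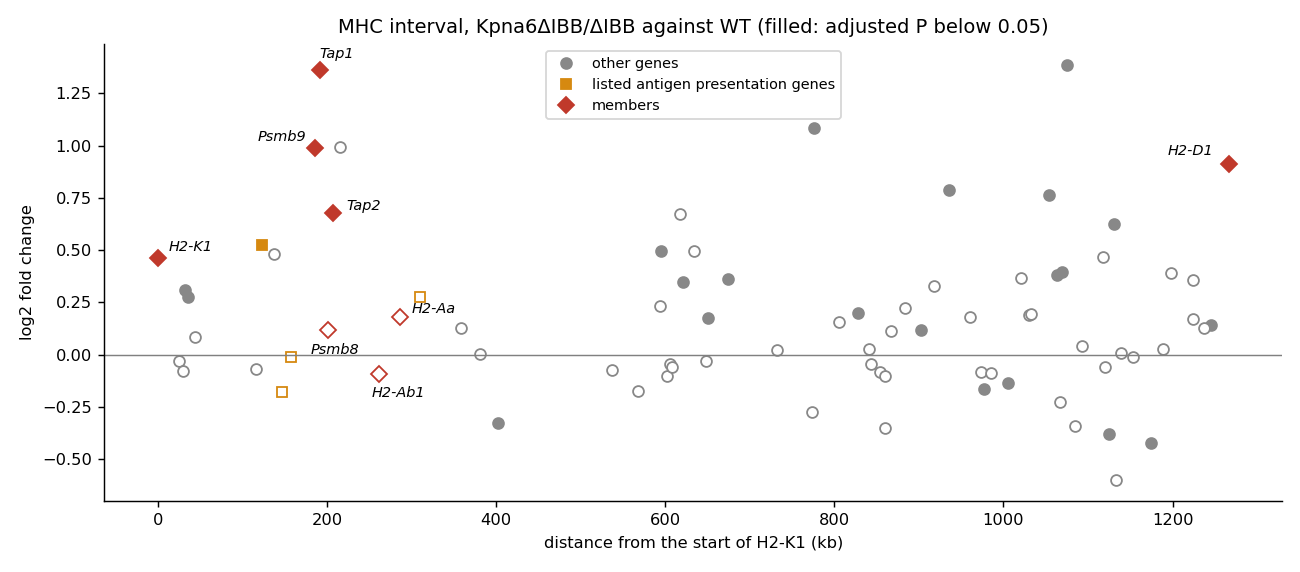
Log2 fold change in *Kpna6*ΔIBB/ΔIBB against WT (n = 3 per group) over the distance from the start of *H2-K1* in kb, diamonds for members, squares for genes of the pathway list and circles for the others, filled where the adjusted P was below 0.05. Of the circles, 16 are filled above 0 and 5 below, *Tap1*, *Psmb9* and *Tap2* stand high near 200 kb, and *Psmb8* lies between them close to 0.

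The deposited values are given per transcript, and the same transcript led in most members in all groups. *H2-K1*-201 held 72.4% to 79.6% of the TPM of its gene in WT and 78.4% to 81.7% in *Kpna6*ΔIBB/ΔIBB testes, *H2-D1*-202 held 91.8% to 97.3% and 94.7% to 96.1%, and *Cd74*-201 held 80.6% to 83.2% and 81.9% to 88.0%. *B2m* has 1 transcript in the files. For *Tap1*, the coding transcript *Tap1*-206 held 76.4% to 90.9% of the gene in WT and 55.1% to 75.7% in *Kpna6*ΔIBB/ΔIBB testes, without overlap (two-sided exact permutation test, P = 0.1, the smallest value possible with 3 against 3). Its own level was 0.549 ± 0.0763 TPM in WT and 1.46 ± 0.0354 TPM in *Kpna6*ΔIBB/ΔIBB testes (SD, n = 3). For *Tap2*, the retained-intron transcript *Tap2*-202 was at 0.521 ± 0.0986 TPM and the coding *Tap2*-201 at 0.491 ± 0.0818 TPM in WT testes, so that part of its gene count was not assigned to coding RNA.

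Across the 9 testes, the genes whose log2 CPM followed *H2-K1* most closely were *Arhgef1*, *Acta2* and *Nkap* (Pearson r = 0.986, 0.98 and 0.979), out of 17439 genes with at least 1 TPM, of which 617 had r above 0.9. *Cd74* was followed by *Zfyve28*, *Mt2* and *Gm11027* (r = 0.949, 0.918 and 0.914), with 8 genes above 0.9. The 9 points fall into 3 genotypes and include libraries that share them, so these values only describe likeness of pattern. The ratio of *Cd74* to *H2-Ab1* in normalized CPM, chosen after the values were seen and not tested, was 0.878 ± 0.122 (SD, n = 3) in WT testes, 1.28 ± 0.0881 in *Kpna6*ΔIBB/ΔIBB testes and 1.18 ± 0.322 in *Kpna6*-/- testes.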

How the data were processed

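RNA from whole testes of 9 mice, 3 per genotype, was sequenced from poly(A) libraries (NEBNext Ultra kit, use of strand not stated). The authors quantified transcripts with kallisto, version 0.45 according to the submitters' processing notes, which name mm10; the study's text gives another version, and the transcript release is not given in the sources used here. They deposited an estimated count and a TPM value per transcript and library. Neither is corrected for cell makeup. The estimated counts of 95301 of 96626 transcripts were summed over 32035 genes of GENCODE M21 (1325 were not assigned) and rounded to whole numbers. Reads that fit several genes are shared out by kallisto, so values of similar genes are estimates. Libraries held 24859751 to 31484692 counts on genes, and low genes are limited by counting error.

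Groups were taken from the labels. Each of 3 comparisons used its 6 libraries, with filterByExpr, TMM scaling and edgeR's quasi-likelihood test (edgeR 4.0.16, R 4.3.3), and genes with a Benjamini-Hochberg adjusted P below 0.05 over all genes tested were called. SE is the log2 fold change divided by the square root of F. The test named in the study's methods, sleuth, was not run. Ratios and transcript shares were compared with two-sided exact permutation tests (scipy 1.17.1). DESeq2 1.42.0, limma 3.58.1 on log2(TPM + 1), other scalings, filters and fits, summed class I heavy chain genes and leaving out each library were tried as alternatives. On simulated counts of 18601 genes for *Kpna6*ΔIBB/ΔIBB against WT, edgeR recovered 91 of 100 genes changed 2-fold and 98 of 100 changed 4-fold, with 19 other calls. The changed genes, 200 in all, were drawn above a minimum mean level that *Psmb9* did not reach, whereas 6874 genes were called in the data. These rates therefore do not describe genes with few counts or smaller changes. Promoters came from a RefSeq table on GRCm38.p6, which matched 7 of 10 members, and windows of H2-K1 and H2-D1 were aligned with biopython 1.88.

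Members, gene lists and marker lists were chosen with earlier results of these data known. Named were the members, *Kpna6*, the proteasome partners, *Nlrc5*, *Ciita*, *Rfx5* and *Tapbp*, then up to 5 called genes per direction of the pathway list with at least 1 TPM by fold change, the 3 genes most like *H2-K1* and *Cd74*, and genes of the MHC interval past a log2 fold change of 1. 1 gene of the pathway list is counted but not reported here.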

Additional observations from a re-analysis of the deposited data

Results flagged for a closer look

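In the direct test between the lines (edgeR's quasi-likelihood test with Benjamini-Hochberg adjustment), 3 members and *Nlrc5*, 1 of the 15 genes of the pathway list that were called, are given here. *H2-K1* was 0.33 higher on the log2 scale in *Kpna6*ΔIBB/ΔIBB testes when set against *Kpna6*-/- testes, *H2-D1* 0.45 higher and *Tap1* 0.69 higher, each with all 3 *Kpna6*ΔIBB/ΔIBB testes above all 3 *Kpna6*-/- testes. *Nlrc5* had a log2 difference of -1.88, with no overlap in the other direction. Over all genes, 13.5% were called as higher and 16.8% as lower, and 21.7% did not overlap upwards and 22.7% downwards. Sertoli cell markers (12 of 12 called as higher) and elongating spermatid markers (10 of 10 called as lower) also differed between the lines, and their part in the differences of these genes was not tested.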

How the results depend on the processing

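Of the 10 genes, 5 to 7 were called in *Kpna6*ΔIBB/ΔIBB against WT when 1 testis was left out, 1 in *Kpna6*-/- against WT and 3 between the lines. With limma on log2(TPM + 1), 0 members were called in *Kpna6*-/- against WT, where 26 genes were called in all. Of the pathway list, 18 to 23 genes were called in *Kpna6*ΔIBB/ΔIBB against WT and 10 to 18 between the lines when 1 testis was left out. In *Kpna6*-/- against WT the list had 1 call, which became 0 with all 9 testes in 1 fit, 0 with limma and 0 with the replicate block, and ranged from 0 to 3 when 1 testis was left out, 3 being the value without the first WT testis and 0 that without any other. The cause was not tested.

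Samples of the same replicate number did not deviate together (correlations of -0.0447 to 0.085), and 3, 0 and 2 of 6 samples in the 3 comparisons correlated best with their own number, so the numbers do not pair the samples. With the replicate number as a block, 7, 1 and 4 members were called, and 25, 0 and 16 genes of the pathway list.

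Some small log2 fold changes turned sign. Scaled by library size only, *H2-Ab1* was at 0.0079, *Rfx5* at 0.0199 and *Psmb7* at 0.06002 in *Kpna6*ΔIBB/ΔIBB against WT, and between the lines *H2-Ab1* was at 0.0197, *Psmb5* at 0.0597, *Psmb6* at 0.0863 and *Psmb7* at 0.02999. With limma, *Rfx5* was at 0.126 and *Psmb7* at 0.0866 against WT, and between the lines *H2-Ab1* was at 0.00856, *Rfx5* at 0.0367, *Psmb5* at 0.101, *Psmb7* at 0.0738 and *Psmb6* at 0.131, the last with an adjusted P of 0.0265. When 1 testis was left out, the values in *Kpna6*ΔIBB/ΔIBB against WT ranged from -0.0677 to 0.366 for *H2-Aa*, -0.456 to 0.15 for *Ciita*, -0.0058 to 0.0749 for *Psmb5* and -0.000732 to 0.0351 for *Psmb6*. For *Kpna6*-/- against WT they ranged from -0.0511 to 0.0146 for *H2-Ab1*, -0.283 to 0.329 for *Ciita* and -8.579e-06 to 0.0529 for *Psmb6*. Between the lines they ranged from -0.155 to 0.00722 for *H2-Ab1*, -0.154 to 0.293 for *Cd74*, -0.417 to 0.0547 for *Ciita*, -0.0809 to 0.000812 for *Psmb5* and -0.0389 to 0.0105 for *Psmb6*. The log2 difference of the *Psmb8* to *Psmb5* ratio ranged from -0.0773 to 0.106 in *Kpna6*ΔIBB/ΔIBB against WT and from -0.208 to 0.025 in *Kpna6*-/- against WT, and that of *Psmb9* to *Psmb6* from 0.747 to 1.55 and from -0.0244 to 0.578. *Psmb9* and *Ciita*, with few counts, are limited by depth.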
